A study of Mus musculus with 12 samples.

Results

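The replication-dependent histone genes lie in clusters, and the 75 peaks of accessible chromatin assigned to them are described here, out of 52530 peaks in all. Members were all peaks whose annotated nearest gene carries a symbol starting with Hist1h, Hist2h, Hist3h or Hist4h. This rule uses names and no measured value, but it was set with earlier results of these data known. The members belong to 45 genes, placed in classes by symbol. These were 5 genes of the linker histone H1 (14 peaks), 12 of H2A (16 peaks), 12 of H2B (17 peaks), 7 of H3 (8 peaks) and 9 of H4 (20 peaks). The H2B set includes Hist3h2bb-ps on chromosome 11, which its symbol marks as a pseudogene. The Hist1 cluster on chromosome 13 held 60 of the peaks, Hist2 on chromosome 3 held 10, Hist3 on chromosome 11 held 2 and Hist4 on chromosome 6 held 3. ATAC-seq, which reads where a transposase can insert adapters and so where DNA is open, was run on nuclei of hepatocytes from 6 HEP-INTACT mice, all female. INTACT pulls genetically tagged nuclei of a chosen cell type out of a whole tissue on beads. The promoter that drives the tag is not given in the sources used here. The 4 groups were frozen liver of mice kept without food for 16 h beginning at ZT12 (onset of their active phase), frozen liver of fed mice, fresh liver of the fasted mice and fresh liver of the fed mice. Fed mice had free access to food and were killed at the matching hour. Each group had 3 libraries, and each mouse gave a library from each preparation, so all 12 libraries come from HEP-INTACT animals.

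Clustered histone genes supply the core histones H2A, H2B, H3 and H4 and the linker histone H1 when DNA is copied. An H3 and H4 tetramer is wrapped first, H2A and H2B dimers complete the nucleosome, and H1 binds where the DNA enters and leaves it. Their transcripts mostly lack introns and end in a stem loop in place of a poly(A) tail. Transcription takes place at histone locus bodies, nuclear sites built around the coactivator NPAT, and is strongest in S phase. Most hepatocytes of an adult liver are not in the cell cycle.

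Promoter sequence was read for 40 of the 45 genes from the RefSeq promoter set on build GRCm38.p6, matched by gene ID. The sequences below are examples of the promoters whose peaks are described later: 3 H4 genes that were higher in frozen liver, the H4 gene Hist1h4f, whose start peak did not pass the test, the H1 gene Hist1h1d, whose start peak was lower in fasted mice, and the H2B gene Hist1h2bk, which was lower in frozen liver. Each line holds the 250 bases upstream of the annotated start, read 5′ to 3′ on the gene's own strand. Capitals mark matches on either strand to TATAAA (the TATA box), CCAAT, ATTTGCAT (the octamer known from H2B promoters), AAACACA (a box known from H1 promoters), GGTCCG (the core of an element known from H4 promoters) and TTTCGCGC (an E2F-type site). Hist1h4h lies on the plus strand at chr13:23530794-23531043, Hist1h4c on the minus strand at chr13:23698459-23698708, Hist1h4d on the plus strand at chr13:23581318-23581567 and Hist1h4f on the minus strand at chr13:23551669-23551918. Hist1h1d lies on the plus strand at chr13:23554782-23555031 and Hist1h2bk on the plus strand at chr13:22035571-22035820.
Hist1h4h: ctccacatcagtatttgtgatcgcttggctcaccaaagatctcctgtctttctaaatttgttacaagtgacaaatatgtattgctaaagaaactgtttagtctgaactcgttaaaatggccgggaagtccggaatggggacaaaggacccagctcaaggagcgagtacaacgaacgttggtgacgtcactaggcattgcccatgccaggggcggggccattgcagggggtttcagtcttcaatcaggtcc
Hist1h4c: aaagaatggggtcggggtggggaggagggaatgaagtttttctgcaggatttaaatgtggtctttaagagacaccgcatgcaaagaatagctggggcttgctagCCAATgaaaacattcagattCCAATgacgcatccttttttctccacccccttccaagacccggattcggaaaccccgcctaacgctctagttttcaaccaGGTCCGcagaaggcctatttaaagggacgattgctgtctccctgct
Hist1h4d: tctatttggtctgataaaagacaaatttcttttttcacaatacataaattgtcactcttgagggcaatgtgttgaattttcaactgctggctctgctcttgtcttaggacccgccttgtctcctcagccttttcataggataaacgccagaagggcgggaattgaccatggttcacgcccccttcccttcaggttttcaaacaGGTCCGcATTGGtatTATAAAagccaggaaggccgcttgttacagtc
Hist1h4f: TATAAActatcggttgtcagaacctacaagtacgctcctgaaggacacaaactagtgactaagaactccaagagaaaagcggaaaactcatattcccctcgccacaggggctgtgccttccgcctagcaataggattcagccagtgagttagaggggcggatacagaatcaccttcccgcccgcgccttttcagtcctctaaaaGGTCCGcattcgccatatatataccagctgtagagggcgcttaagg
Hist1h1d: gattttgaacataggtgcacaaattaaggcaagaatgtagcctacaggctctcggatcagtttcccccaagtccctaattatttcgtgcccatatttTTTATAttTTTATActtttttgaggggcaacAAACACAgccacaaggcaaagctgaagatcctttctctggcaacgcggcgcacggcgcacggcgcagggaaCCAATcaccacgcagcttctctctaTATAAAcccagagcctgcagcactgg
Hist1h2bk: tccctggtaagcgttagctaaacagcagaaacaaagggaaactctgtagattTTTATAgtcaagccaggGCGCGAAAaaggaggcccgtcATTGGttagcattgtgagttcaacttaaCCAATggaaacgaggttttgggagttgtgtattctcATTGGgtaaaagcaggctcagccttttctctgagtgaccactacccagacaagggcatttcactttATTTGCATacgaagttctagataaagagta

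The 6 motifs were not spread evenly over the classes. CCAAT occurred in 35 of the 40 promoters (87.5%), against 34.5% of the 27025 promoters of all genes in the set. It was in 32 of 32 promoters of H1, H2A, H2B and H3 genes and in 3 of 8 H4 promoters. GGTCCG was in 5 of 8 H4 promoters, against 6.82% of all, with its first base 46 or 47 bases before the start in Hist1h4c, Hist1h4d, Hist1h4f and Hist1h4i and 32 bases before it in Hist4h4. ATTTGCAT was in 10 of 40 promoters, 5 of H2A and 5 of H2B genes, against 1.61% of all. AAACACA was in 4 of 5 H1 promoters, against 6.22% of all, and in 2 H2B promoters. TATAAA was in 18 of 40 (45%), against 13% of all. TTTCGCGC was in 6 of 40, 3 of H2A and 3 of H2B genes, against 0.255% of all. H2A and H2B genes often face each other across a shared promoter, so several of these windows hold the same bases. A match is a run of letters and not evidence that a factor binds. The median GC content of the 250 bases was 44.4% in the members and 52.0% over all promoters. The median number of CG dinucleotides in them was higher in the members, at 9 against 6 over all promoters.

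**Figure D1:**
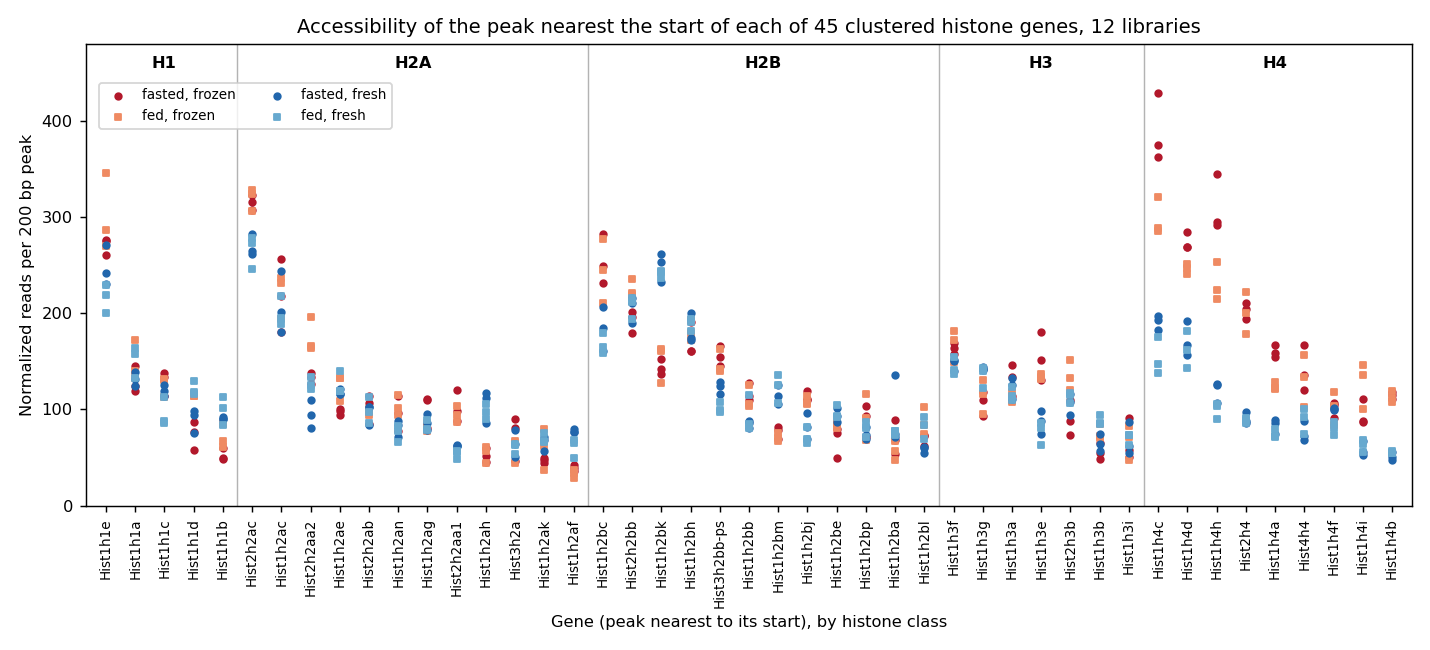
Normalized reads in 1 peak of 200 bp for each of the 45 genes, with 1 point per library. Of the peaks assigned to a gene, the one nearest to its start is shown. Genes are ordered by class and by mean level. The 12 libraries separate by preparation at most H4 genes, with frozen libraries above fresh ones, and lie closer together at most genes of the other classes.

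Peaks were 200 bp wide and positions are on mm10. Of the 75 members, 55 lay no more than 1 kb from a gene start and 20 lay farther away. Values are reads per peak as the authors normalized them, and each is the mean of the libraries named, with the SD where one is given. Over all 12 libraries the members averaged between 51.7 and 293 normalized reads, with a median of 101.8, against a median of 114 for all peaks. The 55 near starts had a median of 110.2, against 166.5 for the 18534 peaks of all genes near starts. The most accessible member was the start of Hist2h2ac (-20 bp, chr3:96220800-96221000), an H2A gene, at 316 ± 7.91 in fasted frozen, 320 ± 11.4 in fed frozen, 269.6 ± 11.4 in fasted fresh and 266 ± 17.3 in fed fresh liver (SD, n = 3 each). The H1 gene Hist1h1e (+3 bp) and the H4 gene Hist1h4c (+61 bp) followed with means of 259 and 258 over the 12 libraries. The lowest members were an intergenic peak assigned to Hist1h2ah (+6373 bp, 51.7), the start of the H2A gene Hist1h2af (-113 bp, 52.7) and an intergenic peak assigned to Hist1h1a (+3291 bp, 54.7). Median levels of the start peaks were 117 for H1, 88.4 for H2A, 98.9 for H2B, 113 for H3 and 110.5 for H4, and each class spanned a range that covered the medians of the others. The start peak is, of the peaks assigned to a gene, the one nearest to its start. For Hist1h1b, Hist1h2ba and Hist1h2bl it lay more than 1 kb away. For Hist1h2ah it was the window at +813 bp. A window assigned to Hist1h2bk (-80 bp) lies closer to the Hist1h2ah start, over the bases just upstream of it. The most accessible start peaks of each class, beside those already named, were Hist1h1a (140.1) for H1, Hist1h2ac (212) for H2A, Hist1h2bc (213) and Hist2h2bb (207) for H2B, Hist1h3f (155) and Hist1h3g (125) for H3, and Hist1h4d (214) for H4. These values are levels, not differences.

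The median peak held 51 to 133 reads in frozen libraries and 86 to 217 in fresh ones. No member held fewer than 15 reads in any library, and 10 neighbouring pairs of member windows overlap by 17 to 92 bp and so share reads. Nearly identical gene copies are uncertain, since reads can match both, and Hist2h2aa1 and Hist2h2aa2 are such copies. Hepatocyte identity was checked with 10 marker genes, of which 10 had a peak and 9 had a peak within 1 kb of their start. The summed signal of their peaks ran from 17278 to 20960 in fasted frozen and 15198 to 18319 in fed frozen libraries. In fresh libraries it ran from 14218 to 16906 in fasted and 13422 to 16150 in fed mice. No peak within 1 kb of a start was found for 6 Kupffer cell, 6 endothelial and 5 lymphocyte markers, and 1 of 5 stellate and 1 of 4 bile duct markers had such a peak. The summed signal of the 2 Kupffer cell markers with any peak ran from 55.6 to 87.2 in fasted frozen, 89.3 to 123 in fed frozen, 81.4 to 108 in fasted fresh and 119 to 161 in fed fresh libraries, so it was lower in fasted mice in both preparations. Of these 2 peaks 1 passed the fasting test used below, and that of Adgre1 (-22795 bp) did not (log2 difference -0.23 ± 0.15). The same sum for 2 stellate cell markers ran from 239.7 to 318 in fasted frozen, 336 to 443 in fed frozen, 275 to 329 in fasted fresh and 339 to 421 in fed fresh libraries. The sum for 5 endothelial markers ran from 1458 to 1577 in fasted frozen, 1506 to 1631 in fed frozen, 1481 to 1501 in fasted fresh and 1615 to 1697 in fed fresh libraries. That for 2 bile duct markers was 194 to 232 in fasted frozen and 198 to 225 in fed frozen, against 157 to 196 in fasted fresh and 123 to 131 in fed fresh libraries. The part that other cells have in the differences below was not tested.

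In frozen liver most H4 genes were more accessible than in fresh liver of the same mice. Of the 9 H4 start peaks, 8 were higher in frozen liver (limma on log2(value + 1), 12 libraries, feeding state as a covariate, Benjamini-Hochberg adjusted p under 0.05 over all peaks), with a median log2 difference of 0.84 over the 9. At each of those 8 genes every frozen library lay above every fresh one at the start peak, as at 22.4% of all peaks near gene starts. Among all peaks near gene starts, 37.6% were higher in frozen liver and 27.7% lower, with a median difference of 0.06. The 38 near-start members outside H4 had 14 higher and 9 lower, with a median of 0.02, and 12 higher and 12 lower with a median of -0.05 after scaling to peaks near starts. The mean over the 9 H4 start peaks was 199 ± 8.77 in fasted frozen and 175 ± 3.16 in fed frozen liver, against 105 ± 4.25 in fasted fresh and 96.1 ± 6.36 in fed fresh liver (SD, n = 3). In bulk nuclei, more nuclei open at a site and greater opening in each cannot be told apart. Frozen libraries were also shallower on average than fresh ones, and the part of depth was not tested.

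**Figure D2:**
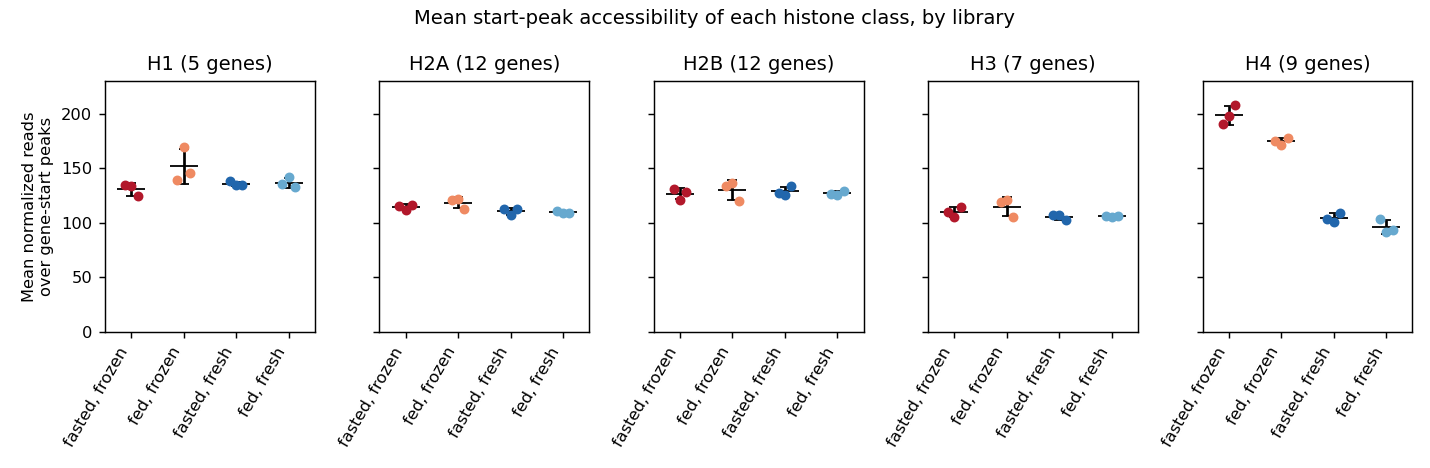
Mean normalized reads over the start peaks of each histone class, with 1 point per library and bars giving the group mean and SD (n = 3). In the H4 panel the frozen libraries (means 199 fasted and 175 fed) lie above all fresh ones (105 fasted and 96.1 fed).

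The largest rise among the members was at Hist1h4h, whose 2 windows over the start overlap by 40 bp. The upstream window (-95 bp, chr13:23530849-23531049) held 182, 183 and 174 normalized reads in fasted frozen libraries and 139, 151 and 160 in fed frozen ones, against 48.2, 60.8 and 50.8 in fasted fresh and 55.0, 63.7 and 55.2 in fed fresh ones. The 6 frozen libraries lay between 139 and 183 and the fresh ones between 48.2 and 63.7. The log2 difference was 1.55 ± 0.10 (SE, adjusted p = 2.02e-09). The window at +65 bp (chr13:23531009-23531209) held 292, 295 and 345 in fasted frozen and 214, 225 and 253 in fed frozen libraries, against 126, 107 and 125 in fasted fresh and 104, 90.3 and 105 in fed fresh ones. It rose by 1.29 ± 0.08 (adjusted p = 1.06e-09), again with no overlap.

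Hist1h4d (-154 bp, chr13:23581348-23581548) held 174, 209 and 151 normalized reads in fasted frozen and 164, 182 and 208 in fed frozen libraries, against 68.5, 64.9 and 63.3 in fasted fresh and 60.4, 75.7 and 64.4 in fed fresh ones. The frozen libraries lay between 151 and 209 and the fresh ones between 60.4 and 75.7, and the log2 difference was 1.43 ± 0.10 (adjusted p = 3.20e-09). Its window at +26 bp, which overlaps the first by 20 bp, rose by 0.64 ± 0.07, with 274 ± 9.45 in fasted frozen and 246 ± 5.43 in fed frozen, against 172 ± 18.2 in fasted fresh and 162 ± 18.9 in fed fresh libraries. Hist2h4 (+8 bp, chr3:96263209-96263409), in the Hist2 cluster, held 210.2, 194 and 205 in fasted frozen and 222, 201 and 179 in fed frozen libraries, against 86.2, 97.7 and 88.1 in fasted fresh and 88.8, 86.3 and 90.7 in fed fresh ones. All frozen values were at least 179 and all fresh values at most 97.7, with a log2 difference of 1.16 ± 0.07 (adjusted p = 1.58e-09). Hist1h4b (-55 bp, chr13:23756782-23756982) held 115, 118 and 111 in fasted frozen and 112, 119 and 108 in fed frozen libraries, against 50.9, 47.3 and 55.4 in fasted fresh and 54.1, 54.4 and 57.2 in fed fresh ones. Its difference was 1.08 ± 0.09 (adjusted p = 3.06e-08).

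Most of the remaining H4 genes moved the same way by less. Hist1h4c, the most accessible H4 gene, held 375, 363 and 429 normalized reads at +61 bp in fasted frozen and 286, 288 and 321 in fed frozen libraries, against 197, 183 and 193 in fasted fresh and 175, 138 and 147 in fed fresh ones, a log2 difference of 0.99 ± 0.07 (adjusted p = 3.50e-09). Hist1h4i and Hist1h4a differed by 0.84 ± 0.12 and 0.84 ± 0.08, and Hist4h4 (-74 bp), alone in its cluster on chromosome 6, by 0.71 ± 0.13. Hist1h4f was the exception: its start peak (-53 bp) held 91.0, 105 and 107 in fasted frozen and 118, 104 and 84.1 in fed frozen libraries, against 100.4, 99.2 and 102 in fasted fresh and 87.0, 81.0 and 72.9 in fed fresh ones. These ranges overlap, and the difference of 0.17 ± 0.10 missed the threshold (adjusted p = 0.174). The rise was seen in each feeding state, with log2 differences of group means of 1.37 in fasted and 1.20 in fed mice at Hist1h4h (+65 bp), 1.02 and 0.96 at Hist1h4c (+61 bp) and 1.16 and 1.16 at Hist2h4 (+8 bp). The promoters printed above include GGTCCG in Hist1h4c and Hist1h4d, which rose, and in Hist1h4f, which missed the threshold. The 250 bases of Hist1h4h and Hist1h4b hold none of the 6 motifs in full. The Hist1h4h window ends in ggtcc, the beginning of GGTCCG, and the bases after it were not searched, so a match may be cut by the window's edge. Hist1h4i, Hist1h4a, Hist1h4f and Hist4h4 were named after their values were seen.

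**Figure D3:**
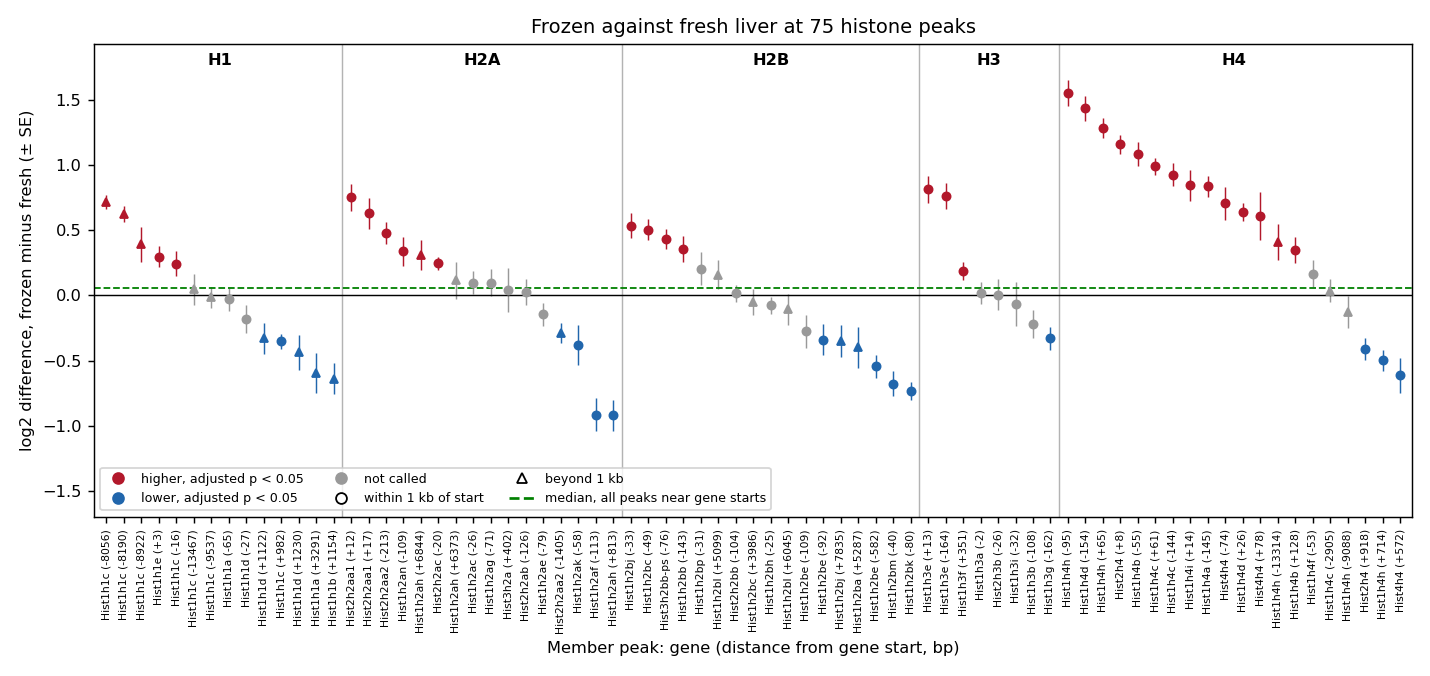
log2 difference between frozen and fresh liver (± SE) for each of the 75 member peaks, by class, with the median of all peaks near gene starts as a dashed line. Of the 20 H4 peaks 14 were higher and 3 lower, while the other classes have peaks on both sides of the line.

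Within H4 genes the windows past the gene body moved the other way. Those at the transcript ends of Hist1h4h (+714 bp), Hist2h4 (+918 bp) and Hist4h4 (+572 bp) fell in frozen liver, by 0.50 ± 0.08, 0.41 ± 0.08 and 0.61 ± 0.14 on the log2 scale. At Hist1h4h the end window held 105, 104 and 127 normalized reads in fasted frozen and 129, 104 and 114 in fed frozen libraries, against 153, 154 and 155 in fasted fresh and 160, 183 and 158 in fed fresh ones, with no overlap. Over all classes 7 of the 8 members annotated at a transcript end were lower in frozen liver, including Hist1h1b (+1154 bp), Hist1h1c (+982 bp) and both end windows of Hist1h1d, which overlap. The background was 29.9% of the 946 peaks at transcript ends of all genes. The 8th, assigned to Hist1h4c at -2905 bp, lies at the end of Hfe, the gene of the iron regulator HFE, and differed by 0.04 ± 0.09. This grouping was made after the values were seen.

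Over all members 32 were higher and 19 lower in frozen liver, or 68.0% called, against 61.5% of all peaks (28.7% higher and 32.8% lower), so the total was near the background. The 6 frozen and 6 fresh libraries did not overlap at 30 of the 75 members, against 26.9% of all peaks with no overlap in either direction. At 22 of the 30 every frozen library lay above, against 7961 of the 52530 peaks in all. Of the 55 members near starts 28 did not overlap, 20 of them with every frozen library above. Of the 18534 peaks of all genes near starts these counts were 6717 and 4152. Outside H4 the classes were split, with 5 higher and 5 lower of 14 for H1, 6 and 4 of 16 for H2A, 4 and 6 of 17 for H2B, and 3 and 1 of 8 for H3. Hist1h2ah (+813 bp, annotated to the promoter region of Hist1h2bk) held 45.5, 51.4 and 60.1 normalized reads in fasted frozen and 60.8, 44.6 and 57.0 in fed frozen libraries, against 117, 86.2 and 112 in fasted fresh and 106, 90.3 and 97.2 in fed fresh ones, a log2 difference of -0.92 ± 0.12 (adjusted p = 4.25e-06). The H2A gene Hist1h2af (-113 bp) held 39.1, 35.7 and 42.3 in fasted frozen and 36.9, 33.4 and 28.9 in fed frozen libraries, against 76.7, 80.0 and 76.8 in fasted fresh and 68.3, 49.1 and 65.05 in fed fresh ones, a difference of -0.92 ± 0.13 (adjusted p = 1.01e-05). At both peaks every frozen library lay below every fresh one. The H2B gene Hist1h2bk (-80 bp, chr13:22035641-22035841), whose promoter is printed above, held 153, 137 and 142 in fasted frozen and 161, 162 and 128 in fed frozen libraries, against 253, 261 and 233 in fasted fresh and 244, 236 and 242 in fed fresh ones, a difference of -0.74 ± 0.07 (adjusted p = 1.34e-07). This window also covers the bases just upstream of the start of the H2A gene Hist1h2ah, so it cannot be given to 1 class alone. Hist1h2bm (-40 bp), another H2B gene, averaged 76.4 ± 6.68 in fasted frozen and 70.9 ± 3.85 in fed frozen libraries, against 115 ± 10.0 in fasted fresh and 122 ± 14.6 in fed fresh ones, a difference of -0.68 ± 0.09. Hist1h1b (+1154 bp), an H1 gene, averaged 52.3 ± 6.72 in fasted frozen and 70.6 ± 12.3 in fed frozen libraries, against 90.6 ± 1.20 in fasted fresh and 99.4 ± 14.9 in fed fresh ones, a difference of -0.64 ± 0.12.

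The largest rise outside H4 was 0.81. The H3 gene Hist1h3e (+13 bp) averaged 154 ± 24.9 in fasted frozen and 134 ± 2.82 in fed frozen libraries, against 87.1 ± 11.8 in fasted fresh and 76.4 ± 12.4 in fed fresh ones, a log2 difference of 0.81 ± 0.10 (adjusted p = 3.71e-06). The H2A gene Hist2h2aa1 (+12 bp) rose by 0.75 ± 0.10, with reads that can also belong to its copy. Overlapping intergenic windows assigned to Hist1h1c (-8190 and -8056 bp) rose by 0.63 ± 0.06 and 0.71 ± 0.05. These 4 peaks were named after their values were seen. Among the most accessible start peaks, Hist2h2ac rose by 0.25 ± 0.05, Hist1h1e by 0.30 ± 0.08 and Hist1h3f by 0.18 ± 0.07, and these 3 calls were lost after quantile normalization (0.11, 0.18 and 0.13). The H4 counts were the same under every alternative run, with 8 start peaks higher and 0 lower. Outside H4, near-start members ranged from 11 to 14 higher and from 7 to 12 lower.

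Fewer histone peaks were called for fasting than for freezing. On the mean of each mouse's fresh and frozen library, 3 fasted against 3 fed, 3 members were higher and 12 lower in fasted mice, or 20% called, against 34.6% of all peaks (16.5% higher and 18.1% lower). Near gene starts 2 of 55 were higher and 4 lower, against 19.7% and 4.59% of all peaks near starts. The median difference of the 55 was 0.0009, against 0.12 for all peaks near starts. Scaling to peaks near starts gave 1 higher and 9 lower of the 55, with a median of -0.12, and leaving out fed mouse B gave 1 higher and 1 lower. Beyond 1 kb 1 of 20 was higher and 8 lower, against 14.8% and 25.4% of all peaks beyond 1 kb. By class, 5 of 14 H1 peaks were lower and none of them higher, H2A had 3 lower, H2B had 1 higher and 1 lower, H3 had 2 lower, and H4 had 2 higher and 1 lower. The fasted and fed libraries did not overlap at 5 of the 75 members, against 12.9% of all peaks. With mice named by the letters A to C of their columns, the count of lower members was 3 without fed mouse B and 6 without fed mouse A. Scaling the libraries to peaks near gene starts moved the median of all peaks by -0.12 and gave 2 higher and 18 lower members.

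**Figure D4:**
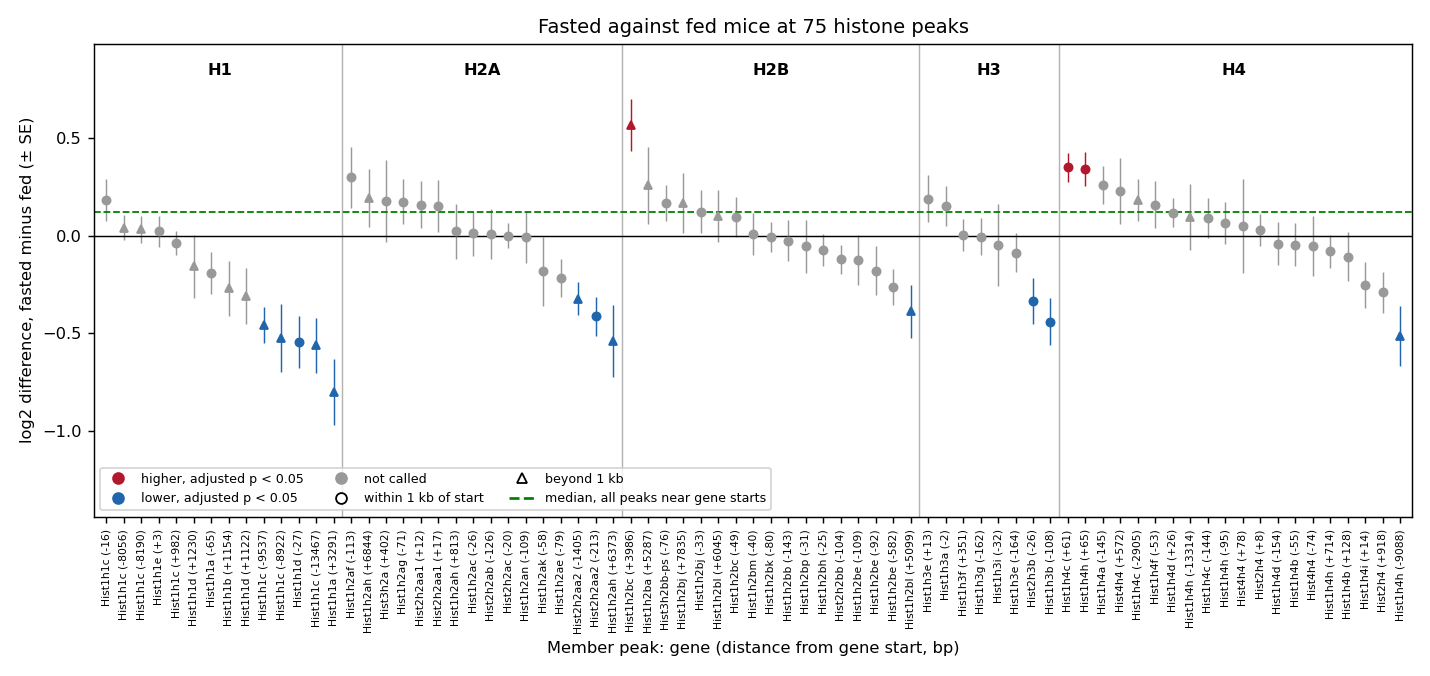
log2 difference between fasted and fed mice (± SE, mean of both preparations, n = 3 mice each) for the 75 member peaks, by class, with the median of all peaks near gene starts as a dashed line. The 3 higher peaks belong to H2B and H4 genes, and 5 of the 12 lower ones to H1 genes.

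All 3 higher members are given here. An intronic peak of the H2B gene Hist1h2bc (+3986 bp, chr13:23688085-23688285) held 81.9, 72.3 and 84.6 normalized reads in fasted frozen and 83.5, 79.0 and 87.0 in fasted fresh libraries, against 56.0, 47.8 and 57.8 in fed frozen and 57.7, 50.5 and 57.8 in fed fresh ones. Every fasted library lay above every fed one, and the log2 difference was 0.57 ± 0.13 (SE, adjusted p = 0.0101). The start of the same gene (-49 bp) did not pass the test, at 0.10 ± 0.10. Hist1h4c (+61 bp), whose per-library values are given above, averaged 290.0 ± 19.6 in fasted and 226 ± 11.1 in fed mice (SD, n = 3 mice), a difference of 0.35 ± 0.07 (adjusted p = 0.00564). Within each preparation its fasted libraries lay above the fed ones. Hist1h4h (+65 bp) averaged 215 ± 17.9 in fasted and 165 ± 12.1 in fed mice, a difference of 0.34 ± 0.09 (adjusted p = 0.0150). This call was lost without fed mouse B (0.30), with DESeq2 (0.24) and with scaling to peaks near starts (0.22), and in each case the difference stayed positive.

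Among lower members, the start of the H1 gene Hist1h1d (-27 bp, chr13:23554905-23555105) held 76.4, 87.2 and 57.9 normalized reads in fasted frozen and 94.3, 98.7 and 75.7 in fasted fresh libraries, against 114, 116 and 114 in fed frozen and 130, 115 and 118 in fed fresh ones. All fasted libraries lay below all fed ones, with a log2 difference of -0.54 ± 0.13 (adjusted p = 0.0119). Its promoter, printed above, holds the H1 box, a CCAAT box and a TATA box. The starts of Hist1h1a, Hist1h1c and Hist1h1e did not pass the test, at -0.19 ± 0.11, 0.18 ± 0.11 and 0.02 ± 0.08. The largest fall was at an intergenic peak assigned to Hist1h1a (+3291 bp), which held 24.6, 35.7 and 33.4 in fasted frozen and 53.6, 57.1 and 35.0 in fasted fresh libraries, against 59.6, 46.2 and 60.5 in fed frozen and 68.3, 89.0 and 93.3 in fed fresh ones. Its difference was -0.80 ± 0.17 (adjusted p = 0.00589), and the groups separate within each preparation but overlap across them.

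The stretch upstream of the H1 gene Hist1h1c held 5 intergenic members, of which 3 were lower in fasted mice. The peak at -9537 bp (chr13:23729170-23729370) held 88.3, 86.3 and 100.1 in fasted frozen and 92.3, 98.2 and 84.8 in fasted fresh libraries, against 133, 126 and 116 in fed frozen and 129, 123 and 129 in fed fresh ones. It differed by -0.46 ± 0.09 (adjusted p = 0.00490) with no overlap. The peak at -13467 bp, in an annotated RMER2 repeat, averaged 135 ± 25.4 in fasted and 197 ± 21.2 in fed mice (SD, n = 3 mice) and differed by -0.56 ± 0.14 (adjusted p = 0.0135), a call lost without fed mouse A (-0.52) or B (-0.51). The peak at -8922 bp averaged 50.2 ± 8.10 in fasted and 72.0 ± 10.4 in fed mice and differed by -0.52 ± 0.17 (adjusted p = 0.0425). That call was lost without fasted mouse A (-0.38) and without fed mouse B (-0.49) or C (-0.44), and after quantile normalization (-0.41). The overlapping windows at -8190 and -8056 bp, which rose in frozen liver, differed by 0.03 ± 0.07 and 0.04 ± 0.06 with fasting. The peak at -9537 bp and the start peak of Hist1h1c were named after their values were seen.

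**Figure D5:**
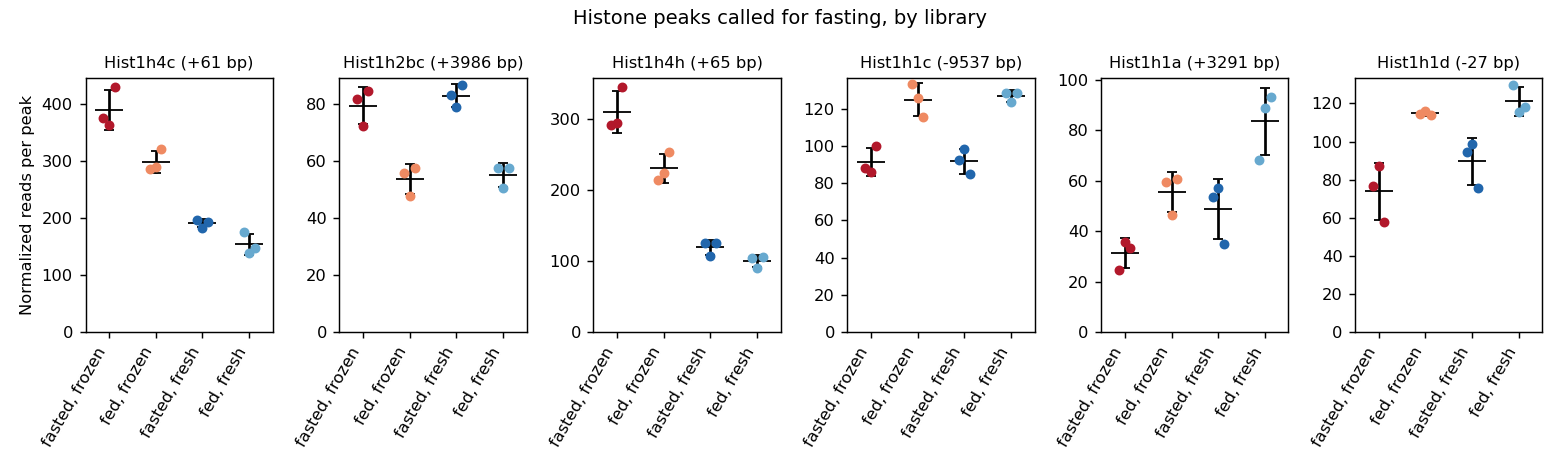
Normalized reads per library at 6 histone peaks called for fasting, by group, with the group mean and SD (n = 3). In each preparation the fasted points lie above the fed ones at the Hist1h4c, Hist1h4h and Hist1h2bc peaks and below them at the Hist1h1d, Hist1h1a and Hist1h1c peaks.

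Other lower members were the H3 gene Hist1h3b (-108 bp), at 60.3 ± 0.98 in fasted and 81.8 ± 2.93 in fed mice with a log2 difference of -0.44 ± 0.12, and the H3 gene Hist2h3b (-26 bp), at -0.34 ± 0.12. At Hist2h3b the difference was -0.58 in frozen liver and smaller in fresh liver. The H2A gene Hist2h2aa2 was lower at -213 bp (-0.41 ± 0.10) and at -1405 bp (-0.32 ± 0.09), within the uncertainty of its copy, and an intergenic peak assigned to Hist1h4h (-9088 bp) was lower by -0.51 ± 0.15. Of the 3 members annotated as tRNA repeats, 2 were lower: the peak assigned to Hist1h2ah (+6373 bp, an isoleucine tRNA repeat) at -0.54 ± 0.18, and that assigned to Hist1h2bl (+5099 bp, an initiator methionine tRNA repeat) at -0.39 ± 0.14. Of all 70 peaks annotated as tRNA repeats 13 were lower and 8 higher. The Hist1h2ah call was lost without fasted mouse A (-0.55) or C (-0.41), without fed mouse A (-0.57), B (-0.42) or C (-0.62), and after quantile normalization (-0.33). The peaks of this paragraph other than that of Hist1h2ah were named after their values were seen.

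Taken within each preparation, fasting gave 4 higher and 6 lower members in frozen liver (27.8% of all peaks called) and 2 higher and 10 lower in fresh liver (27.6%). In frozen liver the split was 1 higher and 15 lower after scaling to peaks near starts, and 1 was lower without fed frozen library B. The authors' deposited table of fasted against fed comparisons gave 3 higher and 6 lower members in frozen liver and 2 higher and 8 lower in fresh liver at an adjusted p under 0.05. Whether the fasting difference depended on the preparation was tested as an interaction in limma, which called 0 members and 0% of all peaks, with 4 members and 2702 of all peaks at an unadjusted p under 0.05. edgeR also called 0 of all peaks and DESeq2 15, and neither called a member. With the letter as a replicate block, in which the samples are paired, 395 of all peaks and 0 members were called. At Hist1h1e the fasting difference was -0.15 in frozen and 0.19 in fresh liver, and at Hist1h4h (-95 bp) it was 0.26 in frozen and -0.12 in fresh liver. Neither interaction passed the adjusted threshold.

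Genes that supply, carry or replace these histones were counted in the same fits. Of 20 symbols for histone gene transcription and transcript processing, of which Ars2 is an older name of Srrt, 17 had peaks, 47 in all, with 7 higher and 4 lower in fasted mice, where 16.5% of all peaks were higher and 18.1% lower. The starts of Npat, the coactivator of histone locus bodies, and Slbp, which binds the stem loop, did not pass the test for fasting (0.09 ± 0.07 and 0.10 ± 0.06), nor did that of Hinfp, which binds H4 promoters (0.01 ± 0.06). The start of Pou2f1, which encodes the octamer-binding factor Oct-1, averaged 97.2 in fasted and 60.4 in fed libraries and differed by 0.76 ± 0.18 (adjusted p = 0.0115). Replacement histone genes, which are expressed outside S phase, had 4 higher and 1 lower of 22 peaks, with the H1 variant gene H1f0 higher by 0.41 ± 0.11 (205 in fasted and 158 in fed libraries). Histone chaperone genes had 5 higher and 4 lower of 45 peaks, with the nucleosome assembly gene Nap1l1 higher by 0.47 ± 0.08. S phase genes had 6 higher and 10 lower of 61 peaks, with the peak nearest to the start of the thymidine kinase gene Tk1 (-1516 bp) at 66.3 in fasted and 175 in fed libraries (-1.43 ± 0.16), while Pcna, the replication clamp, did not pass (0.02 ± 0.06). In frozen liver the supply list had 12 higher and 15 lower, replacement histones 7 and 7, chaperones 14 and 15, and S phase genes 8 and 24, against 28.7% of all peaks higher and 32.8% lower. Hinfp was lower in frozen liver by -0.26 ± 0.05, and Npat did not pass (-0.06 ± 0.06). These values are of 1 peak per gene. Over all its peaks, Pou2f1 had 2 higher and 1 lower of 7 in fasted mice and Nap1l1 had 2 higher and 1 lower of 3. Tk1 had 1 higher and 3 lower of 6, and Slbp had 2 higher and 0 lower of 3. The genes named from these lists were picked after their values were seen.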

How the data were processed

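Nuclei were transposed and sequenced as paired ends, per the labels' protocols. The build mm10 and the use of BWA 0.7.5a-r405, HOMER, SAMtools and DESeq2 appear, per the submitters' processing notes, without their roles. How reads with several matches, duplicates and the transposase offset were treated, which bears on near-identical histone copies, is not given in the sources used here. The authors deposited signal values, reads per peak divided by 1 factor per library, with a score, annotation and position for each peak per the file headers, and their own log2 fold changes and adjusted p-values for fasted against fed.

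The columns carry letters A to C that match no mouse number in the labels. Same-letter columns of the 2 preparations deviated together (r 0.329 to 0.640 over 6 pairs, highest other r 0.0213, against a minimum of 0.1), so a letter was treated as 1 mouse. This pairing comes from the data. All values were whole multiples of 1 step per column (100% within 1e-06). In 4 columns the lowest peak holds 1 step, which gives whole reads directly. In the other 8 the step is the smallest spacing between values, and depths and the count tests there rest on that reading. Depths speak to counting error alone, because copies made by PCR are not separate molecules.

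Values were tested as log2(value + 1) without a filter, in R 4.3.3 with limma 3.58.1, a two-sided test with a trended prior and Benjamini-Hochberg adjustment over 52530 peaks at a threshold of 0.05. A log2 difference on this scale understates changes of low peaks. Fasting used the mean of each mouse's libraries, and freezing all 12 libraries with feeding state as covariate. The alternatives were edgeR 4.0.16 and DESeq2 1.42.0 on the recovered reads, another pseudocount, a filter, 2 other scalings, the replicate block and leaving out each replicate. The steps were tested on simulated data.

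Members and gene lists were chosen with earlier results of these data known. Peaks were named by rule as the 5 largest called differences each way for fasting and for freezing, the 3 highest and 3 lowest members, and the 2 most accessible start peaks of each class. Other peaks are marked as named after their values were seen. A peak is assigned to its nearest gene, which it need not regulate.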

Additional observations from a re-analysis of the deposited data

How the results depend on the processing

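No called difference of a named peak changed sign under the alternatives run, but some balances and medians of member groups did. The members beyond 1 kb had 5 higher and 7 lower for freezing, and 7 higher and 2 lower after quantile normalization. The near-start H4 median for fasting was 0.05, against -0.08 with scaling to peaks near starts, -0.03 with edgeR and -0.04 with DESeq2. Of the values of named peaks, called or not, 368 stayed on the same side of the threshold under the alternatives other than leaving out a replicate. A call was lost in 9 and gained in 3. When a replicate was left out, 451 stayed on the same side and 17 lost a call. Values that were called under neither setting count among those that stayed. Leaving out the lowest 25% of peaks, so that fewer were tested, gave 6 lower members for average fasting and 11780 calls over all peaks. It gave 1 higher member and 8671 calls in fresh liver, and 9682 calls in frozen liver. With start peaks alone there were 5 lower members for average fasting. They gave 3 lower in frozen and 1 higher and 4 lower in fresh liver, and 20 higher and 9 lower for freezing. Scaling to peaks near starts gave 1 higher and 15 lower members in frozen and 1 higher in fresh liver, and quantile normalization 4 higher in fresh liver. edgeR gave 2 higher in frozen liver, and DESeq2 2 higher and 2 lower in frozen and 1 higher and 6 lower in fresh liver. The cause of these changes was not tested.

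For the interaction over all peaks DESeq2 gave 15 calls and the replicate block, with samples paired by letter, 395. The replicate block changed no other count by over 1.5 times: freezing gave 32 higher and 20 lower members with it. Leaving out a replicate gave 2 to 4 higher and 3 to 10 lower members for average fasting (11500 to 17672 peaks in all), 2 to 3 higher and 1 to 4 lower in frozen liver (8711 to 14001), 1 to 2 higher and 4 to 9 lower in fresh liver (9747 to 14642), 29 to 32 higher and 15 to 20 lower for freezing (30453 to 32312), and 0 calls for the interaction. Quantile normalization ended the freezing call of Hist1h1a (+3291 bp, -0.27) and made one at Hist1h2ah (+6373 bp, 0.48). The freezing call of Hist1h3f was also lost after scaling to peaks near starts (0.11) and without 1 of 6 libraries, fed frozen A or B, fasted frozen A, fed fresh A or C, or fasted fresh C. Member peaks took 0.117% of reads in peaks in fasted frozen, 0.122% in fed frozen, 0.107% in fasted fresh and 0.108% in fed fresh libraries. With start peaks alone these shares were 0.0754%, 0.0775%, 0.0683% and 0.0667%, and as a share of reads near starts 0.190%, 0.207%, 0.175% and 0.184%. Depth limits small differences, and the shallowest library held 51 reads in its median peak.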

Other observations

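The H4 gene Hist4h4 had the least even values between mice. Its window at +78 bp (chr6:136804253-136804453) had the largest standard error of a fasting difference among the 75 members, 0.24, against a median of 0.12 for the members and 0.12 for all peaks. Fasted mouse B held 156 normalized reads in frozen and 104 in fresh liver, while fasted mice A and C held 95.6 and 113 in frozen and 61.1 and 73.5 in fresh liver. Fed mouse B held 79.6 in frozen and 50.5 in fresh liver, while fed mice A and C held 137 and 139 in frozen and 93.2 and 90.02 in fresh liver. Fasted mouse B, a different animal from fed mouse B, was thus the highest of the fasted mice in each preparation and fed mouse B the lowest of the fed mice, and the mean difference was 0.05 ± 0.24. The H3 gene Hist1h3i (-32 bp) followed with a standard error of 0.21: fasted mouse C held 91.2 in frozen and 87.0 in fresh liver, against 51.0 to 57.5 in frozen and 54.3 to 61.8 in fresh liver of the other fasted mice. These peaks were chosen for their spread after the values were seen.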
